A study of Mus musculus with 12 samples.

Results

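UDP-glucuronosyltransferases, encoded by the Ugt genes, were followed in the liver of mice on 4 diets. The members were 10 genes, Ugt1a1, Ugt1a6a, Ugt1a9, Ugt2a3, Ugt2b1, Ugt2b5, Ugt2b34, Ugt2b35, Ugt2b36 and Ugt2b38, and every array probe whose RefSeq accession maps to 1 of these symbols was taken. Such probes were found for 8 of the 10 genes, 9 probes in all, out of 20882 genes and 39429 probes on the array. Ugt2b35 had 2 probes, and Ugt1a1 and Ugt1a9 had none named by accession, so that no level is given for these 2 genes.

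The mice were female C57BL/6N, 6 weeks old at purchase, with no transgene, and were fed their diet for 6 months. Ctrl mice received a low-fat formula diet (NFD) with corn starch and sucrose as carbohydrate, and RS mice the same diet with resveratrol added. In DJ mice Dongjin rice took the place of starch and sucrose, and in DJ526 mice the rice was DJ526, a Dongjin line that makes resveratrol in its grain from a peanut stilbene synthase transgene. Liver RNA of 3 mice per group was hybridised to 12 one-colour Agilent arrays, 1 mouse each. The amount of resveratrol in the RS feed is not given in the sources used here, and cages of 10 mice were assigned to a diet as a whole, with no cage named for a mouse.

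Glucuronidation joins a glucuronic acid group from UDP-glucuronic acid to a small molecule, which makes it more soluble in water and ready for export into bile or blood. Resveratrol, a plant stilbene with phenol groups, is cleared largely as glucuronides and sulfates, and in humans UGT1A1 and UGT1A9 are the enzymes best known for it. Ugt1a enzymes act on bilirubin (Ugt1a1) and on planar phenols (Ugt1a6a), whereas the Ugt2b and Ugt2a enzymes are known for steroids, bile acids and many drugs. Each Ugt1a gene has a first exon of its own and shares the later exons with the rest of its locus, while each Ugt2b gene is a separate unit in a tandem cluster.

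In the RefSeq gene order, the Ugt2 genes of chromosome 5 stand in the order Ugt2b34, Ugt2b1, Ugt2b35, Ugt2b36, Ugt2b5, Ugt2b37, Ugt2a3, Ugt2b38, Ugt2a1 and Ugt2a2, with 0 other protein-coding genes between the first and the last. Ugt1a9, Ugt1a6a and Ugt1a1 lie in the Ugt1a locus of chromosome 1. The 100 bases before the transcript start of 4 of the chromosome 5 genes are shown because the levels of the first 3 genes followed each other from mouse to mouse and those of Ugt2b1 followed them less closely. They are from RefSeq, build GRCm38.p6, on the minus strand, and read 5′ to 3′ towards the gene, at chr5:87140341-87140440 for Ugt2b5, chr5:87424204-87424303 for Ugt2b38, chr5:87092556-87092655 for Ugt2b36 and chr5:86926504-86926603 for Ugt2b1. Capitals mark the longest run common to the first 3 genes (22 bases) and, in Ugt2b1, its longest run in common with any of them (11 bases, with Ugt2b36).
Ugt2b5: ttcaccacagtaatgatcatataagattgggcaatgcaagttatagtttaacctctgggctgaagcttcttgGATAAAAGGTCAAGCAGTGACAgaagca
Ugt2b38: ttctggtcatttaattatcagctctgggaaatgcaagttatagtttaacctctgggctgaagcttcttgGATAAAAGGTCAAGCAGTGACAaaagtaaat
Ugt2b36: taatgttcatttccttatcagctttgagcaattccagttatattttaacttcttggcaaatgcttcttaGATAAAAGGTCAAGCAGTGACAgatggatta
Ugt2b1: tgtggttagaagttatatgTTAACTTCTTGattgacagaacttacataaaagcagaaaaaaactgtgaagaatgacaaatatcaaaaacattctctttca

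Ugt2b5 and Ugt2b38 shared an unbroken run of 62 of these 100 bases. The longest run that Ugt2b5 shared with Ugt2b36 was 24 bases, and that of Ugt2b36 with Ugt2b38 was 22. The run common to these 3 began 28 bases before the start in Ugt2b5 and 31 in Ugt2b36 and Ugt2b38. All 10 members were found in the RefSeq promoter table. Motifs were searched on both strands over 250 bases before the start, and were chosen after the sequences were seen. The xenobiotic response element core GCGTG, bound by the aryl hydrocarbon receptor, was in 0 of the 10 windows, against 28.2% of 32851 promoters, and the antioxidant response element core TGACNNNGC in 0, against 10.2%. TATAAA, searched on the strand of the gene, was in 0, against 7.59%. A match or its absence only describes the letters in these windows.

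The arrays were of like quality, with 73.0% to 80.8% of spots well above background, 0 saturated spots and 93 to 197 flagged spots per array. Slide 1 held the Ctrl arrays and DJ replicate 1, slide 2 the other DJ arrays and RS replicates 1 and 2, and slide 3 RS replicate 3 and the DJ526 arrays, so that diet and slide go largely together. A sample list of the study swaps the array identifiers of RS and DJ relative to the labels. The labels were followed, and under that list the values given for RS and DJ would change places. The tissue label was checked with markers fixed for the main liver cell types and for neighbouring organs. All 5 hepatocyte markers (Alb, Apoa1, Ttr, Cps1, Tat) were well above background on all 12 arrays, and their summed level lay between 9.96 and 10.3 on the scale explained next. Of the gut markers, Muc2 was well above background on no array, Lct on 2, and Fabp2 on all 12, at a level of 4.53 to 5.48. The kidney marker Slc34a1 and the pancreas marker Cela1 were so on all 12 arrays, Umod on 7, Prss2 on 8, and the adipose markers Adipoq and Plin1 on 7 and 10.

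Levels are given as the processed signal of a probe over the 75th percentile of its array, in log2, so that 0 is the 75th percentile. They compare mice within a probe, not one probe with another. In whole liver, fewer cells of a type and less RNA per cell cannot be told apart. All 9 member probes were well above background on all 12 arrays. Over the 8 genes, each read by its brightest probe, the distance between the lowest and the highest mouse ran from 0.30 for Ugt2b36 to 1.04 for Ugt2b1 on the log2 scale. Among probes of like brightness, 30.5% had a smaller SD over the 12 mice than Ugt2b36 and 87.7% a smaller SD than Ugt2b1. Ugt2b36 was thus somewhat steadier than the middle of such probes, and Ugt2b1 was among the more variable ones.

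**Figure D1:**
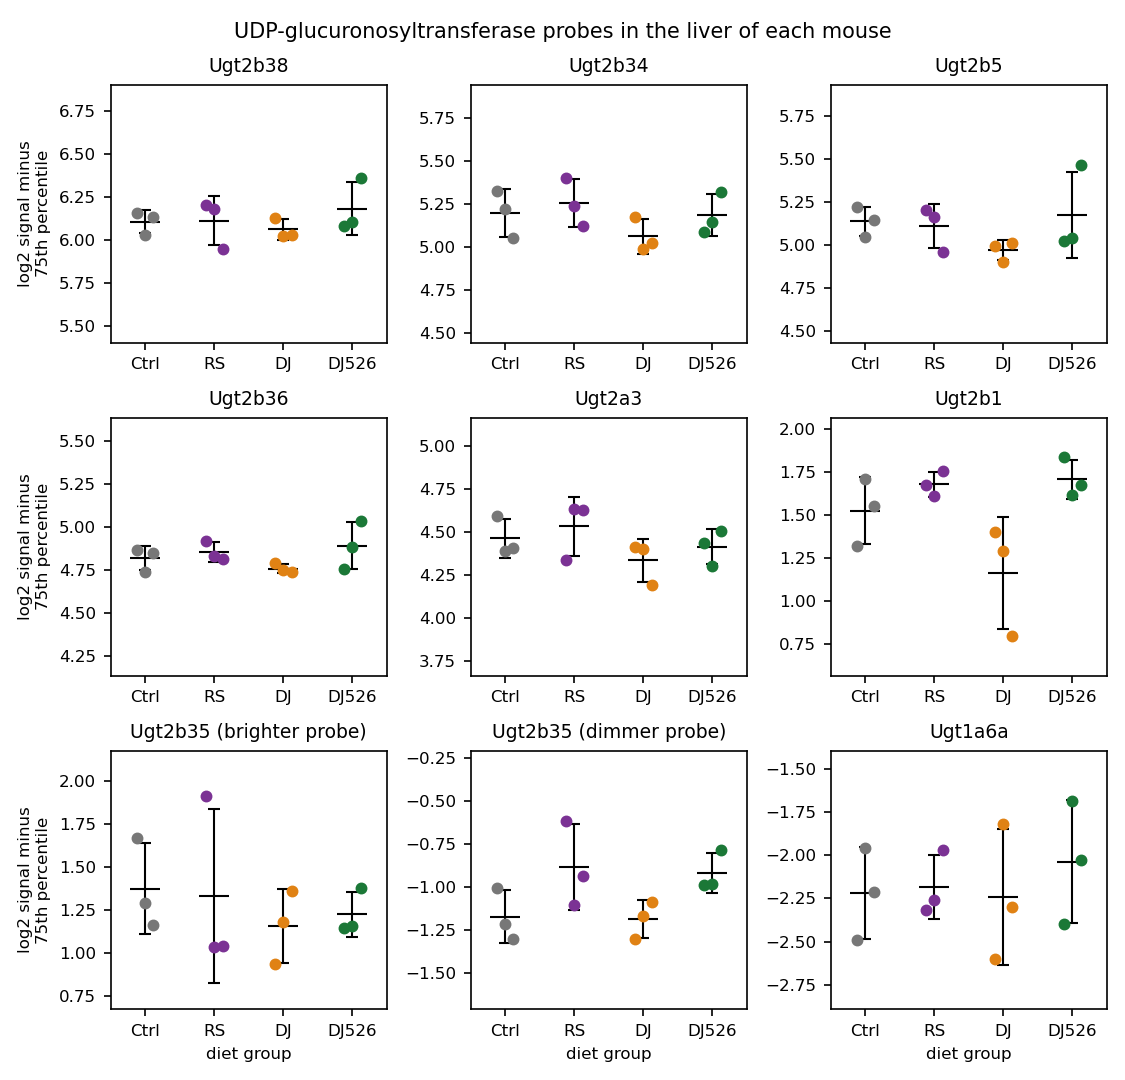
Level of each of the 9 probes (log2 signal relative to the array's 75th percentile) in each of 12 livers. Points are mice, bars the group mean and SD (n = 3), and every panel spans 1.5 log2 units around its own middle. Ugt2b1 has 1 DJ mouse at 0.79, below the other 11, whereas Ugt2b36 stays between 4.74 and 5.03.

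No member was called different by limma at an adjusted p under 0.05 in any of 8 comparisons, which did not include DJ against RS. The lowest adjusted p over the 9 probes and all comparisons was 0.297, for Ugt2b1 in DJ526 against DJ. Few probes of the whole array passed either, with 0% called in RS against Ctrl, 0% in DJ against Ctrl, 0.00507% in DJ526 against Ctrl, 0.0101% in DJ526 against DJ and 0.00761% in DJ526 against RS. The comparisons of both rice diets with both starch diets, of both resveratrol diets with both others, and of DJ526 against DJ with RS against Ctrl called 0% each. The last is named the difference between the effects of resveratrol, although DJ526 and DJ also differ as rice lines and neither pair of diets shared a slide. At an unadjusted p under 0.05, 1 of the 8 genes passed in DJ against Ctrl and 1 in DJ526 against DJ, where 5.20% and 9.84% of all probes passed. With resveratrol against without, 1 of the 8 passed as higher and 0 as lower, against 6.73% and 3.31% of all probes. The gene was Ugt2b1 each time, and 0 passed in the other 5 comparisons. The dimmer Ugt2b35 probe also passed as higher with resveratrol. In the other 5, 6.00% of all probes passed in RS against Ctrl, 10.8% in DJ526 against Ctrl, 5.52% in DJ526 against RS, 4.56% with rice against starch and sucrose, and 6.09% for the difference between the effects of resveratrol. The groups of the 8 genes overlapped throughout in RS against Ctrl, DJ526 against Ctrl and DJ526 against RS, where 10.2%, 20.6% and 11.1% of all probes did not overlap, and in both comparisons of pairs of diets, where 0.127% (rice) and 0.569% (resveratrol) did not. The unmoderated test of the study's methods, with Benjamini-Hochberg adjustment, also called 0 members.

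In the fit without slide, the 95% interval of each of the 8 genes lay within 1 log2 unit of 0 in all 8 comparisons. This did not hold for 3 genes with slide as a block. In RS against Ctrl the intervals then reached -1.51 for Ugt1a6a, 1.07 for Ugt2b1 and -1.14 for Ugt2b35, and in DJ526 against Ctrl -1.80 for Ugt1a6a. As diet and slide go largely together, the narrower intervals are no limit on a difference that went unseen. In the fit with slide as a block, DJ526 is tied to Ctrl and DJ only through RS replicate 3, the only array of another diet on its slide. Without the block, 6 genes lay within 0.5, a 1.41-fold difference, in RS against Ctrl, 5 in DJ against Ctrl, 5 in DJ526 against Ctrl, 5 in DJ526 against DJ and 6 in DJ526 against RS. The SE of a difference between 2 diets ran from 0.0753 (Ugt2b36) to 0.232 (Ugt1a6a). The number of arrays limits this precision.

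**Figure D2:**
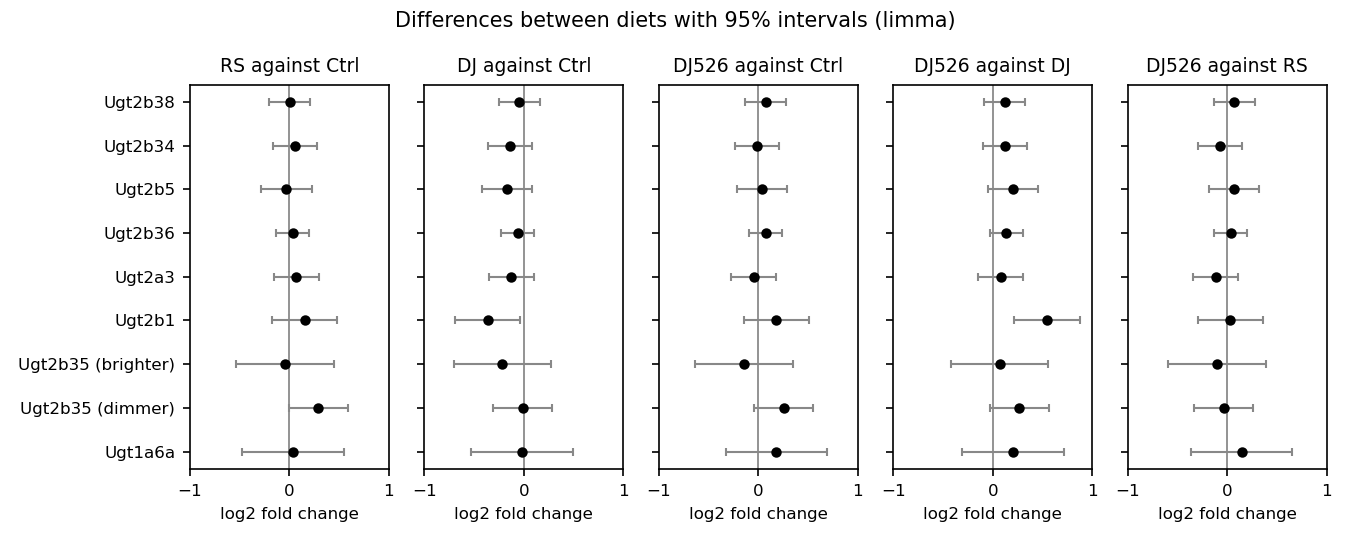
Difference between 2 diets (log2 fold change, horizontal axis) for each probe, with its 95% interval from limma (12 arrays, 3 per group), in 5 comparisons. All intervals of this fit, which has no slide term, lie within -1 and 1; those of Ugt2b1 in DJ against Ctrl (-0.69 to -0.04) and DJ526 against DJ (0.22 to 0.87) leave out 0, with adjusted p of 0.939 and 0.297.

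Ugt2b1 gave the widest differences. The probe read 1.32, 1.71 and 1.55 in the Ctrl mice, 1.67, 1.61 and 1.75 in the RS mice, 1.40, 1.29 and 0.79 in the DJ mice, and 1.83, 1.62 and 1.67 in the DJ526 mice. The 3 DJ mice were below all 3 RS and all 3 DJ526 mice, and DJ replicate 1 was above the lowest Ctrl mouse. RS and DJ526 overlapped. The means were 1.52 ± 0.19 in the Ctrl mice, 1.68 ± 0.07 in the RS mice, 1.16 ± 0.32 in the DJ mice and 1.71 ± 0.11 in the DJ526 mice (SD, n = 3).

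DJ526 against DJ gave a log2 difference of 0.55 (SE 0.15), a 1.46-fold higher signal with a 95% interval from 1.16 to 1.83 (limma adjusted p = 0.297). Groups that did not overlap were found for 2 of the 8 genes in this comparison, Ugt2b1 and Ugt2b5, against 18.5% of all probes. DJ against Ctrl gave -0.36 (SE 0.15, limma adjusted p = 0.939). Without DJ replicate 3, the lowest mouse, these values were 0.36 and -0.18. RS and DJ526 differed from Ctrl by 0.15 and 0.18, each with an interval that held 0. The DJ mice serve in both DJ comparisons, which are therefore not independent.

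The 2 resveratrol diets together stood 0.35 above the 2 others for Ugt2b1 (95% interval 0.12 to 0.58, limma adjusted p = 0.347). RS against Ctrl gave 0.15 on starch and sucrose, and DJ526 against DJ gave 0.55 on rice. The difference between them, 0.39 with an interval from -0.07 to 0.86, did not pass (limma adjusted p = 0.866). Resveratrol, the rice line and the slide cannot be told apart in the value on rice. In the fit with slide as a block, RS against Ctrl was 0.48 and the difference between the effects 0.08. Slides shared by 2 diets allowed 3 comparisons on 1 slide. The DJ mouse of slide 1 read 0.12 below the mean of the 3 Ctrl mice there, the 2 DJ mice of slide 2 read 0.60 below the 2 RS mice, and the 3 DJ526 mice of slide 3 read 0.04 below the RS mouse. With slide as a block, the log2 difference was 0.55 in DJ526 against DJ (limma adjusted p = 0.676) and -0.12 in DJ against Ctrl.

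Ugt2b5, Ugt2b38 and Ugt2b36, whose promoters are printed above, varied together from mouse to mouse. Ugt2b5 read 5.22, 5.05 and 5.14 in the Ctrl mice, 5.20, 5.16 and 4.96 in the RS mice, 4.99, 4.90 and 5.01 in the DJ mice, and 5.02, 5.04 and 5.46 in the DJ526 mice. Ugt2b38 read 6.15, 6.03 and 6.13 in the Ctrl mice, 6.20, 6.18 and 5.95 in the RS mice, 6.13, 6.02 and 6.02 in the DJ mice, and 6.08, 6.10 and 6.36 in the DJ526 mice. Ugt2b36 read 4.87, 4.74 and 4.85 in the Ctrl mice, 4.92, 4.83 and 4.81 in the RS mice, 4.79, 4.75 and 4.74 in the DJ mice, and 4.76, 4.89 and 5.03 in the DJ526 mice. DJ526 replicate 3 was the highest of the 12 mice for all 3 genes, while for Ugt2b1 it was in the middle of its group.

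Over the 12 mice Pearson's r was 0.91 between Ugt2b5 and Ugt2b38, 0.86 between Ugt2b5 and Ugt2b36, and 0.84 between Ugt2b36 and Ugt2b38. After the group means were taken off, r was 0.93, 0.85 and 0.83, so that most of the shared movement lay between mice of 1 diet. Ugt2b1 correlated with the same 3 genes at 0.19 to 0.33 over the 12 mice. After the group means were taken off the sign turned, with r at -0.35 for Ugt2b5, -0.24 for Ugt2b36 and -0.16 for Ugt2b38. Ugt2b34 correlated with Ugt2b5, Ugt2b36 and Ugt2b38 at 0.72, 0.66 and 0.66, and at 0.69, 0.62 and 0.72 within groups. In the 100 bases before the start, its longest run in common with them was only 7, 8 and 7 bases. Whether promoter sequence bears on the levels was not tested. The correlations are a description, and the points share array, slide and scaling. Whether the probes of close relatives take up each other's transcript was not tested, since probe sequences were not used here, and levels of single Ugt2b genes are uncertain to that extent.

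**Figure D3:**
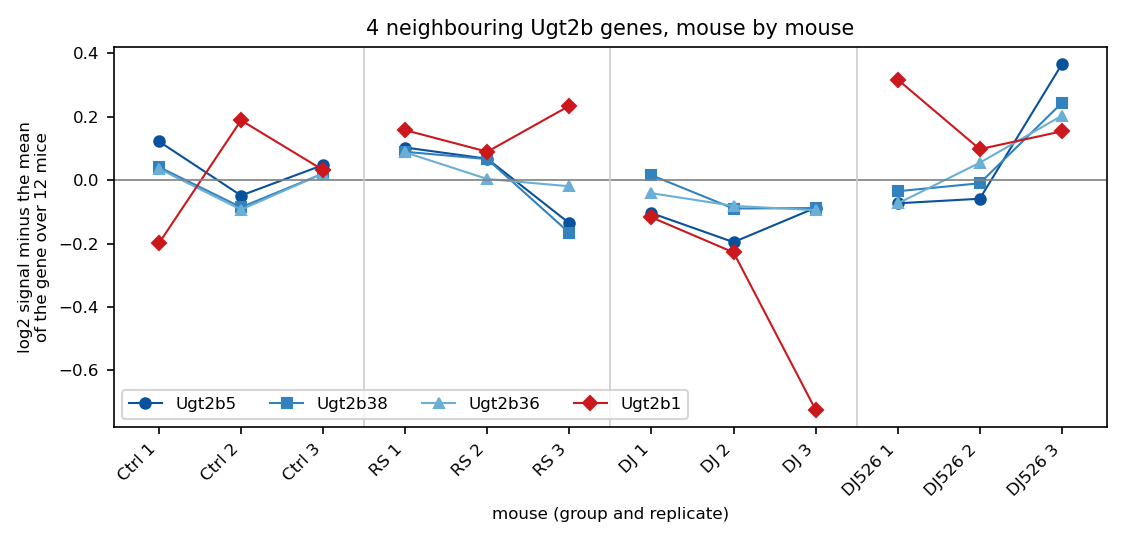
Level of 4 genes in each of the 12 mice as log2 signal minus the mean of the gene over all mice, with lines joining mice of 1 group only for reading. Ugt2b5, Ugt2b38 and Ugt2b36 (blue) run close together and are highest in DJ526 replicate 3, whereas Ugt2b1 (red) is lowest in DJ replicate 3.

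Of these 3 genes, only Ugt2b5 had groups without overlap in the pairs of diets compared by a fit. In DJ and RS, a pair without a fit, all 3 DJ mice were below the 3 RS mice for Ugt2b36 (highest DJ mouse 4.79, lowest RS mouse 4.81). The share of all probes without overlap in that pair is not given here. For Ugt2b5 the fitted pairs stood as follows. All 3 DJ mice were below the 3 Ctrl mice, by 0.17 on average (95% interval -0.42 to 0.08), and below the 3 DJ526 mice, by 0.21 (95% interval -0.05 to 0.46). The latter value was 0.06 without DJ526 replicate 3 and 0.44 with slide as a block. For all mice the limma adjusted p was 0.997 and 0.576, and the exact permutation p of both, two-sided, was 0.1, the lowest that 3 mice against 3 can reach. In DJ against Ctrl this was 1 of the 8 genes, against 9.37% of all probes. Ugt2b36 and Ugt2b38 differed by at most 0.13 and 0.12 between any of the diets compared in pairs. With slide as a block, Ugt2b38 differed by 0.42 in DJ526 against Ctrl and by 0.40 in DJ526 against DJ (limma adjusted p = 0.444 and 0.626), and Ugt2b36 by up to 0.21. These values rest on RS replicate 3, the only array of another diet on the DJ526 slide and the lowest mouse for Ugt2b38 (5.95).

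Ugt2b35 varied by mouse more than by diet. Its brighter probe read 1.67, 1.29 and 1.16 in the Ctrl mice, 1.91, 1.04 and 1.04 in the RS mice, 0.93, 1.18 and 1.36 in the DJ mice, and 1.14, 1.16 and 1.37 in the DJ526 mice. The dimmer probe read -1.002, -1.21 and -1.30 in the Ctrl mice, -0.61, -1.10 and -0.93 in the RS mice, -1.30, -1.17 and -1.08 in the DJ mice, and -0.99, -0.98 and -0.78 in the DJ526 mice. RS replicate 1 was the highest mouse on both probes. The probes did not give the same order of diets. The dimmer one was higher in all 3 DJ526 mice than in the 3 Ctrl mice, by 0.26, and than in the 3 DJ mice, by 0.27 (limma adjusted p = 0.521 and 0.540), where the brighter one gave -0.15 and 0.07 with overlapping groups. Non-overlap of this kind was found for 20.6% of all probes in DJ526 against Ctrl.

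Ugt1a6a, the only Ugt1a member measured, had overlapping groups in every comparison. It read -2.49, -1.96 and -2.21 in the Ctrl mice, -2.32, -2.26 and -1.97 in the RS mice, -2.60, -1.82 and -2.30 in the DJ mice, and -2.40, -1.68 and -2.03 in the DJ526 mice. The SD between mice of a diet was 0.31 in the fit, against a widest difference of 0.20 between 2 diet means. RS differed from Ctrl by 0.04 (95% interval -0.47 to 0.55) and DJ526 from Ctrl by 0.18 (-0.33 to 0.69). With slide as a block the latter was -0.68 and still not called. Ugt1a6b, a neighbour of the same locus named here after its values were seen, had a bright probe at 7.28 to 7.56 and a second at 0.30 to 0.70. Whether these or the Ugt1a6a probe read the exons that the locus shares was not tested, so that they stand in for neither Ugt1a1 nor Ugt1a9.

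Ugt2a3 and Ugt2b34 varied about as much as other probes of like brightness, of which 57.6% and 58.2% had a smaller SD over the 12 mice. Ugt2a3 lay between 4.19 and 4.64 and Ugt2b34 between 4.98 and 5.40 over the 12 mice. For both, the highest mouse was an RS mouse and the lowest a DJ mouse, and the diets overlapped in every comparison. In RS against Ctrl the differences were 0.07 (95% interval -0.16 to 0.30) for Ugt2a3 and 0.05 (-0.17 to 0.28) for Ugt2b34. These values depended on the setting. With slide as a block, Ugt2b34 differed by 0.29 in RS against Ctrl and by 0.38 in DJ526 against DJ (limma adjusted p = 0.634 and 0.674). In RS against Ctrl, Ugt2a3 gave 0.14 with slide as a block and -0.17 with normexp, another background correction.

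In the order of the 4 diet means, DJ was the lowest for all 8 genes, against 29.5% of all probes. DJ526 was the highest for 5 genes (Ugt1a6a, Ugt2b1, Ugt2b5, Ugt2b36, Ugt2b38), RS for 2 (Ugt2a3, Ugt2b34) and Ctrl for 1 (Ugt2b35). Of all probes, 33.2% were highest in DJ526, 24.6% in RS and 23.2% in Ctrl. For the 7 genes other than Ugt2b1, no pair of diets among the 5 compared differed at an unadjusted p under 0.05 in this fit. In DJ526 against DJ this did not hold with quantile scaling, the deposited table or slide as a block, the last through Ugt2b38. Passing thus depended on the scaling. The deposited table raised the difference of Ugt2b1, which is not among these 7 genes, from 0.55 to 0.61 and that of Ugt1a6a from 0.20 to 0.26. These values show the size of the shift only. Which of the 7 genes passed with quantile scaling or the deposited table is not given here. The share of all probes that passed in those fits is not given here. DJ was not compared with RS by a fit. The median difference over the 8 genes was -0.13 in DJ against Ctrl, with all probes at -0.01, and 0.13 in DJ526 against DJ, with all probes at 0.04. In RS against Ctrl it was 0.04, with all probes at 0.03, and in DJ526 against Ctrl 0.06, with all probes at 0.02. The genes are not independent, as their correlations show.

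Within slide 1 the DJ mouse was below the Ctrl mean for 7 of the 8 genes, against 51.8% of all probes. Within slide 2 the DJ mice were below the RS mice for 7 of 8, against 48.6%. Ugt2b38 was the exception on slide 1, at 0.02 above, and Ugt1a6a on slide 2, at 0.23 above. Markers of other cells stood as follows in the same mice. Of the 5 hepatocyte markers, Alb, Apoa1 and Ttr read lower in DJ526 than in DJ, by -0.29, -0.13 and -0.12, and Cps1 and Tat read higher, by 0.67 and 0.13, with 0 called (limma adjusted p = 0.230 for Alb and 0.487 for Cps1). Only Alb had groups without overlap, at 9.25 to 9.41 in DJ and 9.01 to 9.06 in DJ526. Among the markers of other organs, the groups did not overlap in DJ526 against DJ for Fabp2 (-0.49), Lct (1.53), Muc2 (0.96), Slc34a1 (0.81), Prss2 (0.32) and Adipoq (-1.67). The endothelial marker Clec4g (0.31) did not overlap either. With Alb this made 8 of all 33 markers, against 18.5% of all probes, and 0 were called. Muc2 was well above background on 0 arrays, Lct on 2, Adipoq on 7 and Prss2 on 8, so that their differences are uncertain. The summed level ran from 0.09 to 0.70 in DJ and 0.02 to 0.60 in DJ526 for cholangiocytes (4 of 4 markers well above background on all arrays), from 5.37 to 6.05 and 5.43 to 6.01 for Kupffer cells (4 of 4), from 4.51 to 5.09 and 5.02 to 5.21 for endothelial cells (4 of 4), from 5.93 to 6.12 and 5.97 to 6.09 for stellate cells and fibroblasts (4 of 4), and from 1.07 to 1.72 and 1.24 to 1.41 for lymphocytes (3 of 3). Each sum follows its brightest markers, so that a dimmer marker can move without showing in it. Of the Kupffer cell markers, 2 read higher in DJ526 than in DJ, Marco most (0.95), and 2 lower. Of the stellate cell and fibroblast markers, 1 read higher and 3 lower, Col1a1 most (-0.35). The part of these cell types in the Ugt levels was not tested.

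Genes whose pattern over the 12 mice was most like that of the Ugt genes were sought among 15568 named genes. The closest to the mean of the 8 genes were Naa16, a subunit of an N-terminal acetyltransferase (r = 0.87), Zfp397 (0.87), Cryl1, an L-gulonate dehydrogenase (0.86), Bbip1, a BBSome subunit (0.85), and the glycerate kinase gene Glyctk (0.84). The closest to Ugt2b1 were Rrm1, the large subunit of ribonucleotide reductase (0.94), Mboat7, a phospholipid acyltransferase (0.94), and Gsta4, a glutathione S-transferase for lipid aldehydes (0.90). DJ replicate 3, the lowest mouse for Ugt2b1, was also the lowest for these 3 genes, with Rrm1 at -1.49, Mboat7 at 1.18 and Gsta4 at -0.42. The closest to Ugt2b35 were Mrpl49 (0.92) and the acute-phase genes Saa2 (0.91) and Saa1 (0.89). Both Saa genes were highest in RS replicate 1, at 5.58 and 5.11, as Ugt2b35 was. The closest to Ugt1a6a were Afap1l1 (0.95), Nhsl2 (0.92) and Gm5544 (0.91). Being the highest of many, these values are a description only.

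The rest of the pathway was read from lists of 38 genes that supply UDP-glucuronic acid, remove or export conjugates, compete for substrates, or control and mark the control of Ugt genes. Probes were found for 33 of them, and limma called 0 in each of the 8 comparisons. At an unadjusted p under 0.05 there were 6 in RS against Ctrl, 2 in DJ against Ctrl, 5 in DJ526 against Ctrl, 1 in DJ526 against DJ and 3 in DJ526 against RS, where 6.00%, 5.20%, 10.8%, 9.84% and 5.52% of all probes passed. The groups did not overlap for 5, 4, 6, 4 and 3 of the 33 in the same order, where the backgrounds were 10.2%, 9.37%, 20.6%, 18.5% and 11.1% of all probes. Of the 12 other Ugt genes, 7 had a probe and 0 were called.

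Among the 4 genes of UDP-glucuronic acid supply, 0 were called. Ugp2, which makes UDP-glucose, differed from Ctrl by 0.04 in RS, -0.02 in DJ and 0.03 in DJ526. Ugdh, which oxidises it to UDP-glucuronic acid, gave 0.24, -0.15 and 0.12 with a wide SE of 0.27, and Slc35d1, which carries the acid into the endoplasmic reticulum, 0.12, -0.06 and -0.01. Gusb, the lysosomal glucuronidase that removes the group again, gave -0.18, -0.20 and -0.30 (limma adjusted p = 0.415 in DJ526). The exporters Abcc2 of the bile canaliculus and Abcc3 of the blood side gave 0.17, 0.10 and 0.17, and 0.22, 0.13 and 0.23. The intervals of both held 0 throughout.

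The exporter Abcc4 and the sulfotransferase Sult1b1 were chosen after their values were seen. Abcc4 read -1.18, -1.65 and -1.69 in Ctrl and -0.14, -0.87 and -0.75 in RS, a difference of 0.92 without overlap (limma adjusted p = 0.437). In DJ and DJ526 it read -1.33 to -1.07 and -1.27 to -0.78. Sult1b1 read 1.71 to 1.75 in DJ526, below all other mice, whose lowest was 1.79, with a difference of -0.43 from RS (limma adjusted p = 0.433).

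Of the factors known to control Ugt genes, Ahr, Nr1i2 (the pregnane X receptor) and Nr1i3 (the constitutive androstane receptor) read 0.34, 0.38 and 0.49 above Ctrl in RS (limma adjusted p = 0.781, 0.739 and 0.806). In DJ they read 0.40, 0.26 and 0.22 above Ctrl, with Ahr higher in all 3 DJ mice than in the 3 Ctrl mice (limma adjusted p = 0.851), and in DJ526 0.28, 0.10 and 0.21. Nr1i2 was higher in all 3 RS mice than in the 3 Ctrl mice. It was lower in all 3 DJ526 mice than in the 3 RS mice (-0.28, limma adjusted p = 0.958). Of all probes, 9.37% did not overlap in DJ against Ctrl, 10.2% in RS against Ctrl and 11.1% in DJ526 against RS. Nfe2l2, the factor of the antioxidant response, gave -0.10, -0.16 and -0.14 in RS, DJ and DJ526. With slide as a block Nr1i2 in RS was -0.08 and Nr1i3 1.01, neither called.

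Among the marker targets of these factors, Cyp1a1, Cyp1a2 and Cyp3a11 gave wider differences than any Ugt member, none of them called. Cyp1a1, the classical target of Ahr, read -5.08, -4.62 and -5.91 in the Ctrl mice, -4.07, -4.54 and -3.42 in the RS mice, -3.66, -3.87 and -4.31 in the DJ mice, and -4.54, -3.91 and -3.56 in the DJ526 mice. The Ctrl mice were below all 9 others. The differences from Ctrl were 1.19, 1.25 and 1.20 (SE 0.39, limma adjusted p = 0.671, 0.811 and 0.304), and these 3 share the Ctrl mice. Cyp1a2, another Ahr target, gave 0.79, 0.45 and 0.78, with RS and DJ526 above all Ctrl mice. In DJ526 against DJ, where Ugt2b1 differed most, Cyp1a1 gave -0.06 and Cyp1a2 0.33.

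Cyp3a11, the target of Nr1i2, read 6.84, 6.73 and 6.50 in Ctrl, 7.22, 6.49 and 6.19 in RS, 6.42, 7.06 and 6.81 in DJ, and 6.29, 5.78 and 5.59 in DJ526. Of the 2 Cyp3a11 probes, only the brighter is given here. It read lower in DJ526 by 0.81 against Ctrl and by 0.88 against DJ without overlap (limma adjusted p = 0.308 and 0.349), and close relatives in the Cyp3a family make it uncertain. RS replicate 3, on the slide of the DJ526 arrays, lay within the DJ526 range, so that DJ526 and RS overlapped. With slide as a block these were -0.67 and -0.39. Cyp2b10, the target of Nr1i3, gave 0.02, 0.16 and 0.10 against Ctrl, and Nqo1, a target of Nfe2l2, 0.34, 0.07 and 0.25, with intervals that held 0.

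**Figure D4:**
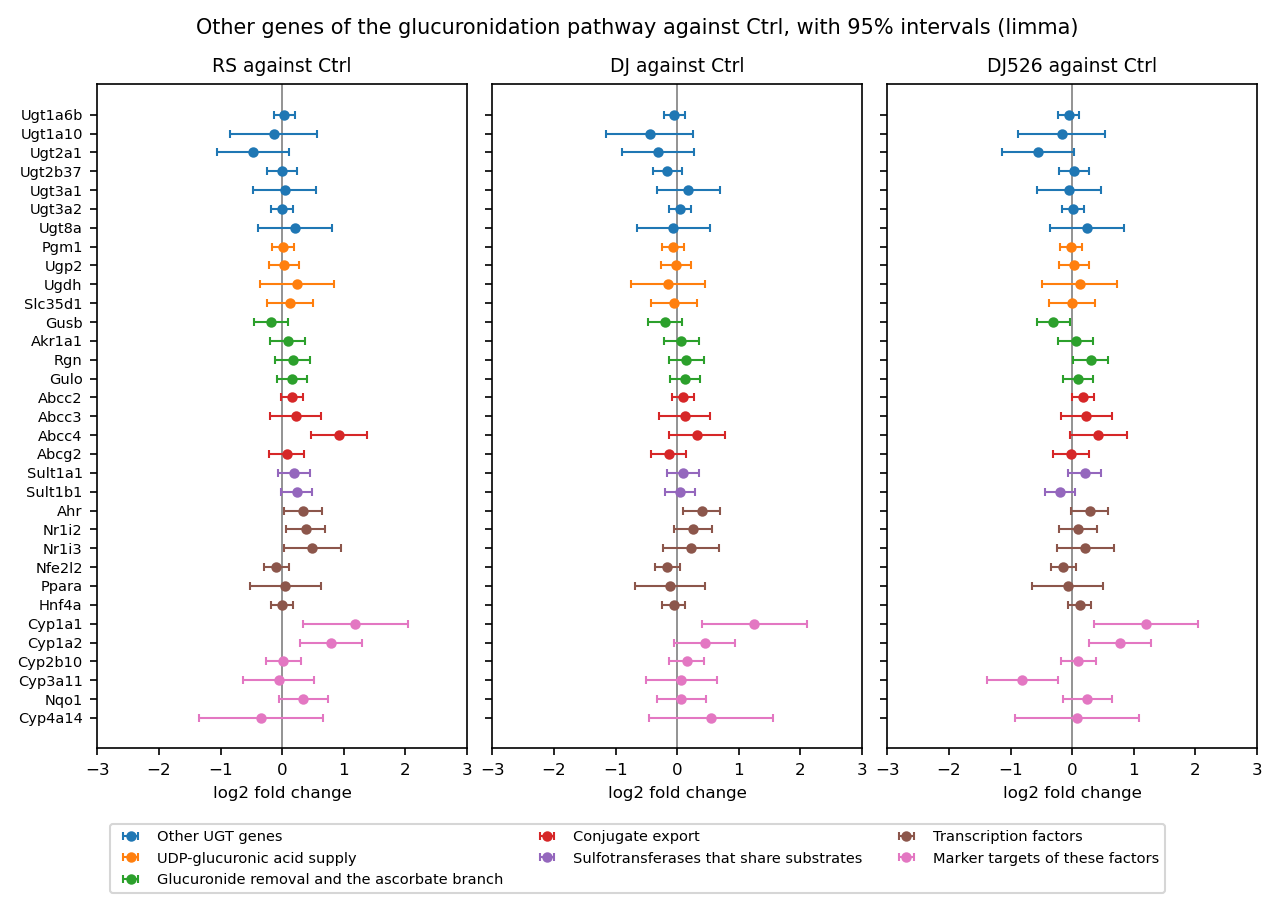
Log2 fold change of 33 other genes of glucuronidation and its control against Ctrl in RS, DJ and DJ526, with 95% intervals from limma (3 mice per group), coloured by role. Most genes lie near 0; Cyp1a1 is at 1.19, 1.25 and 1.20, Abcc4 at 0.92 in RS and Cyp3a11 at -0.81 in DJ526, none called.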

How the data were processed

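The authors deposited, per array, the intensity of every spot from Agilent Feature Extraction (version 11.5.1.1, per the file headers), with a processed signal after background subtraction, and a table of globally normalized intensity, which was that signal times 1 factor per array for over 99% of probes. Here the mean processed signal of a probe's unflagged spots was divided by the 75th percentile of its array and taken as log2. Of 39429 probes, 27502 had 1 symbol through RefSeq accessions. A gene was read by its brightest probe. The dimmer probes of Ugp2, Ahr, Nr1i3 and Cyp3a11 are not given. limma 3.58.1 (R 4.3.3) was fitted with 4 group means and a variance trend, with Benjamini-Hochberg adjustment over all probes and a threshold of 0.05, and was tested on simulated data. Groups and replicate numbers came from the labels. An authors' sample list gives the RS and DJ array identifiers the other way round, and the labels were followed. Labels do not say that samples came from separate cages. Members and lists were chosen with earlier results of these data known. Pathway genes to be named were a fixed part of the lists (Ugdh, Ugp2, Slc35d1, Gusb, Abcc2, Abcc3, Ahr, Nr1i2, Nr1i3, Nfe2l2, Cyp1a1, Cyp1a2, Cyp2b10, Cyp3a11, Nqo1 and 1 gene not reported here) and any other that limma called, of which there were 0, with exceptions marked. The other list genes are given by counts. Alternatives were quantile scaling, the deposited table, normexp (offset 50), a filter on dim probes, no variance trend, slide and replicate blocks, the methods' test, and leaving out each array. Same-numbered arrays of different groups correlated in their deviations at -0.34 to 0.39, so that numbers did not pair samples. Python 3.11.15, numpy 2.4.6, pandas 2.3.3, scipy 1.17.1 and matplotlib 3.10.9 were used.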

Additional observations from a re-analysis of the deposited data

How the results depend on the processing

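In all 8 comparisons 0 member probes were called under every alternative run, and the lowest adjusted p of a member was 0.135 (limma, Ugt2b1 in DJ526 against DJ without DJ replicate 1). The 64 differences of the 8 genes gave 1224 values under the alternatives. Of these, 1187 moved by less than the spread between mice and 37 by more, 26 of them with slide as a block, 9 with normexp and 2 with the other Ugt2b35 probe; the cause was not tested. All 8 genes were below 0 in DJ against Ctrl and above 0 in DJ526 against DJ with quantile scaling, the deposited table, normexp and the filter, but 7 and 6 of them with slide as a block, which also moved the median of all probes to -0.12 in DJ526 against Ctrl and -0.10 in DJ526 against DJ. With resveratrol against without, all 8 were above 0, but 5 with normexp and 7 with slide as a block. Ugt2b1 in DJ526 against DJ ran from 0.36 to 0.67 when 1 array was left out. The replicate numbers were not a pairing: 5 of 18 same-numbered pairs correlated above 0.1, and 5 of 12 arrays correlated best with their own number. With the replicate block, 0 member probes were called and the adjusted p of Ugt2b1 in DJ526 against DJ was 0.424. Signal over background limited no member, since all were well above it on all arrays.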
